A study of Mus musculus with 6 samples.

Results

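The Ms4a genes encode small membrane proteins that cross the membrane several times. Of the 30445 genes in the count table, 16 carry an Ms4a symbol, and 8 of them are described here: Ms4a4a, Ms4a4b, Ms4a4c, Ms4a4d, Ms4a6b, Ms4a6c, Ms4a6d and Ms4a7. The members were selected on measured values, because Ms4a4a is among the genes that differ most between fibroblasts and the cells made from them. Their levels against fibroblasts are therefore given as a description, with no test. The induced macrophages against the myeloid-like cells were tested.

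RNA was sequenced from 3 groups of mouse cells, each labelled wild type and each with 2 libraries. MEF are mouse embryonic fibroblasts, MCC is a mixed culture named a myeloid-like cell complex, and iMac are induced macrophages. The series title names c-Myc as the factor that turns fibroblasts into macrophages. The labels do not say how c-Myc was supplied, for how long the cells were cultured, or whether the libraries of a group came from separate cultures, so the p-values measure only the spread between these libraries.

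The family takes its name from membrane-spanning 4-domains proteins. Ms4a1 encodes CD20 on B cells, and Ms4a2 encodes the beta chain of the high-affinity IgE receptor on mast cells and basophils. Other members, Ms4a4a, Ms4a6d and Ms4a7 among them, are known from macrophages. Ms4a4a has been reported to associate with the fungal receptor Dectin-1 (gene Clec7a), which signals through the kinase Syk. Ms4a4b is known mainly from T cells.

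Library totals ran from 34389817 to 39174367 counts. The gene Myc was at 70.7 and 63.1 CPM (counts scaled to a common library size) in MEF, 823 and 1160 CPM in MCC, and 1020 and 1060 CPM in iMac. Reads from an added copy and from the gene of the cell cannot be told apart in these counts. A list of 10 macrophage genes, Csf1r, Cd68 and Adgre1 among them, summed to 25.7 to 50.7 CPM in MEF, 10800 to 11000 CPM in MCC and 18100 to 21900 CPM in iMac. A list of 10 fibroblast genes, Col1a1 among them, summed to 8810 to 20500 CPM in MEF and 11.5 to 14.8 CPM in iMac. In MCC this sum was 907 CPM in library 1 and 77.8 CPM in library 2, so the MCC libraries differ in their fibroblast RNA. In these bulk samples fewer cells of a type and less RNA per cell cannot be told apart.

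The 8 genes lie together on chromosome 19, between base 11321039, the lowest base of Ms4a7, and base 11604849, the highest base of Ms4a6d (GRCm38, GENCODE M21). The order along the chromosome is Ms4a7, Ms4a4a, Ms4a4c, Ms4a4b, Ms4a6c, Ms4a6b, Ms4a4d and Ms4a6d. Ms4a7 and Ms4a6d are on the minus strand and the other members are on the plus strand. The RefSeq promoter table (GRCm38.p6), 300 bases around each start, matched 7 of the 8 members; Ms4a6d was not matched. Ms4a7 has 2 entries, which gives 8 promoters. For Ms4a4a and Ms4a4d the bases just after the RefSeq start were not all found in a GENCODE M21 transcript of the gene. Promoters of 5 members are shown because these genes carry the contrasts below. Ms4a4a and Ms4a7 stand among the members highest in iMac, and Ms4a4d is the member found in fibroblasts. Ms4a6b and Ms4a6c are the pair with similar CPM, though not per kilobase of exonic bases. Capitals mark matches to the motifs named after the sequences. They are Ms4a4a at chr19:11375238-11375537 (plus strand), Ms4a7 at chr19:11336097-11336396 (minus strand), Ms4a6b at chr19:11518309-11518608 (plus strand), Ms4a6c at chr19:11469118-11469417 (plus strand) and Ms4a4d at chr19:11536544-11536843 (plus strand).
Ms4a4a: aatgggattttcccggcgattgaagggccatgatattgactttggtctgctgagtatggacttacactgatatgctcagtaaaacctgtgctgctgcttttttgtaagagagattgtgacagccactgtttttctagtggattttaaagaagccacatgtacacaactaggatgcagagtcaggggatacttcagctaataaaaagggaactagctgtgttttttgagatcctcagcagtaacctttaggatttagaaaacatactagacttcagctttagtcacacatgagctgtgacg
Ms4a7: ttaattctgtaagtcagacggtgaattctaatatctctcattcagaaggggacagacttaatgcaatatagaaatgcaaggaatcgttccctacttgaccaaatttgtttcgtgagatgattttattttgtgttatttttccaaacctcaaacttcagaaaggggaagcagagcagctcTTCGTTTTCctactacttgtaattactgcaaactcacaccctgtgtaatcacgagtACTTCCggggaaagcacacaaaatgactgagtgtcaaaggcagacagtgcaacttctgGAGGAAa
Ms4a6b: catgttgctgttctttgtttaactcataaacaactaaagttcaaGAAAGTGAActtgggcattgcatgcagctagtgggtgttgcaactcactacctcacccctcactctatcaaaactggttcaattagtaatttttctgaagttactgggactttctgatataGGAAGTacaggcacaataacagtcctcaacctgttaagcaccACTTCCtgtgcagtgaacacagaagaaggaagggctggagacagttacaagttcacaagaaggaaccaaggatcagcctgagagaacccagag
Ms4a6c: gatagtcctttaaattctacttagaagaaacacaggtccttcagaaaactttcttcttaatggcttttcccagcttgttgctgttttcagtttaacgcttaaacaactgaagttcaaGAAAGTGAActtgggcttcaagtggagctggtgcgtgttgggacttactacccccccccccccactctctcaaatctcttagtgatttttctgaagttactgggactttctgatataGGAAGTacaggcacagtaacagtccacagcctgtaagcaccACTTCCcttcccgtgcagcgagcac
Ms4a4d: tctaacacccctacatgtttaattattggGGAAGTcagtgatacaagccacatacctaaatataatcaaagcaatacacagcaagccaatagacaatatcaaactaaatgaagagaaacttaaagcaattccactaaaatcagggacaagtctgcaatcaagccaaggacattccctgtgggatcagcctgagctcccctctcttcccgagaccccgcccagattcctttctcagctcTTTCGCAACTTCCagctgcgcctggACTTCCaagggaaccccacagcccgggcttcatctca

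Motifs were searched on both strands, and matches may overlap. The PU.1 letters GAGGAA occur in 3 of the 8 member promoters and in 28.3% of 32851 promoters in the table. Those 3 belong to Ms4a7, Ms4a4b and Ms4a4c. The C/EBP letters TTGCNNAA occur in 1 member promoter, that of Ms4a4d, and in 10.8% of all. The TATA letters TATAAA occur in 1, that of Ms4a4b, and in 13.6% of all. The E-box CACGTG, the letters bound by Myc and its partner Max, occurs in 0 of the 8 and in 7.15% of all. The Ets core GGAAGT and the IRF half-sites GAAANNGAA were added after the sequences had been seen. GGAAGT occurs in 6 of the 8 and in 23.8% of all, and GAAANNGAA in 4 of the 8 and in 8.56% of all. Aligned end to end, the promoters of Ms4a4b and Ms4a4c share 79.0% of bases and those of Ms4a6b and Ms4a6c share 65.7%. Every other pair of member promoters shares 61.7% or fewer. A match describes letters in these windows only.

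Of the 8 genes, 7 had 3 counts or fewer over both MEF libraries. Of those, 5, namely Ms4a4a, Ms4a7, Ms4a6b, Ms4a6c and Ms4a6d, stood at levels between 66.8 and 263 CPM in every MCC and iMac library. Ms4a4b and Ms4a4c were low throughout, and Ms4a4d had the reverse pattern, with its highest level in MEF.

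Ms4a4a was counted 0 and 0 times in MEF, 2570 and 4973 times in MCC, and 5747 and 5891 times in iMac. Its level was 66.8 and 133 CPM in MCC and 172 and 178 CPM in iMac. Both MCC libraries are below both iMac libraries, and MCC library 1 is the lowest of the 4. Against a floor of 3 counts over both MEF libraries, Ms4a4a was at least 2510-fold higher in MCC and at least 4406-fold higher in iMac.

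Ms4a7 was counted 3 and 0 times in MEF, 4441 and 3365 times in MCC, and 8824 and 7418 times in iMac. That is 115 and 90.0 CPM in MCC and 263 and 224 CPM in iMac, so the MCC and iMac libraries do not overlap. Its ratio to MEF was 2598 in MCC (95% exact interval 888.6 to 12600) and 6150 in iMac (2104 to 29820). These and the following intervals cover counting error only.

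The genes Ms4a6b, Ms4a6c and Ms4a6d are close relatives within the family. Ms4a6d was counted 0 and 2 times in MEF, 9199 and 8857 times in MCC, and 6614 and 6314 times in iMac. It stood at 239 and 237 CPM in MCC and at 198 and 190 CPM in iMac, both iMac libraries below both MCC libraries. Its ratio to MEF was 9013 in MCC (2495 to 74430) and 7342 in iMac (2032 to 60630).

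Ms4a6b was counted once in each MEF library, 4534 and 5824 times in MCC, and 4191 and 4229 times in iMac. Its levels of 118 and 156 CPM in MCC enclose those of 125 and 128 CPM in iMac. Ms4a6c was counted 1 and 0 times in MEF, 4583 and 5052 times in MCC, and 4528 and 4790 times in iMac, which is 119 and 135 CPM against 135 and 144 CPM. The groups overlap for Ms4a6b; for Ms4a6c the higher MCC library lies just under the lower iMac library. The ratio to MEF of Ms4a6b was 5171 in MCC (1431 to 42700) and 4782 in iMac (1323 to 39490). That of Ms4a6c was 9619 in MCC (1726 to 380000) and 10580 in iMac (1899 to 418100).

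The level of Ms4a6c is uncertain. Of its exonic bases, 53.1% lie under the antisense gene BE692007. Of its 50-base windows, 51.4% also occur in other genes, mostly in BE692007, so these shares largely describe the same overlap. Whether the counting used strand is not stated in the labels. BE692007 itself was at 14.0 CPM in MCC and 18.3 CPM in iMac. For the other 7 members between 0% and 8.19% of such windows occur elsewhere, the highest share being that of Ms4a4c, mostly in Ms4a4b.

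Ms4a4b was counted 0 and 1 times in MEF, 105 and 88 times in MCC, and 121 and 116 times in iMac, at most 3.61 CPM. Ms4a4c was counted 0 and 0 times in MEF, 20 and 28 times in MCC, and 27 and 44 times in iMac, at most 1.33 CPM. Both were above MEF in every MCC and iMac library, yet far under the other members that were higher. The ratio of Ms4a4b to MEF was 192.7 in MCC (34.18 to 7650) and 269.2 in iMac (47.85 to 10680). Ms4a4c was at least 15.97-fold higher in MCC and at least 26.88-fold higher in iMac.

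Ms4a4d was counted 176 and 168 times in MEF, 15 and 2 times in MCC, and 2 and 2 times in iMac. Its level was 4.77 and 4.33 CPM in MEF. It was 20.27-fold lower in MCC (12.47 to 35.2) and 75.71-fold lower in iMac (29.3 to 279.5). Of the 17 MCC counts 15 came from library 1, the library with the higher sum of fibroblast genes; the part of that sum in the level of Ms4a4d was not tested.

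**Figure D1:**
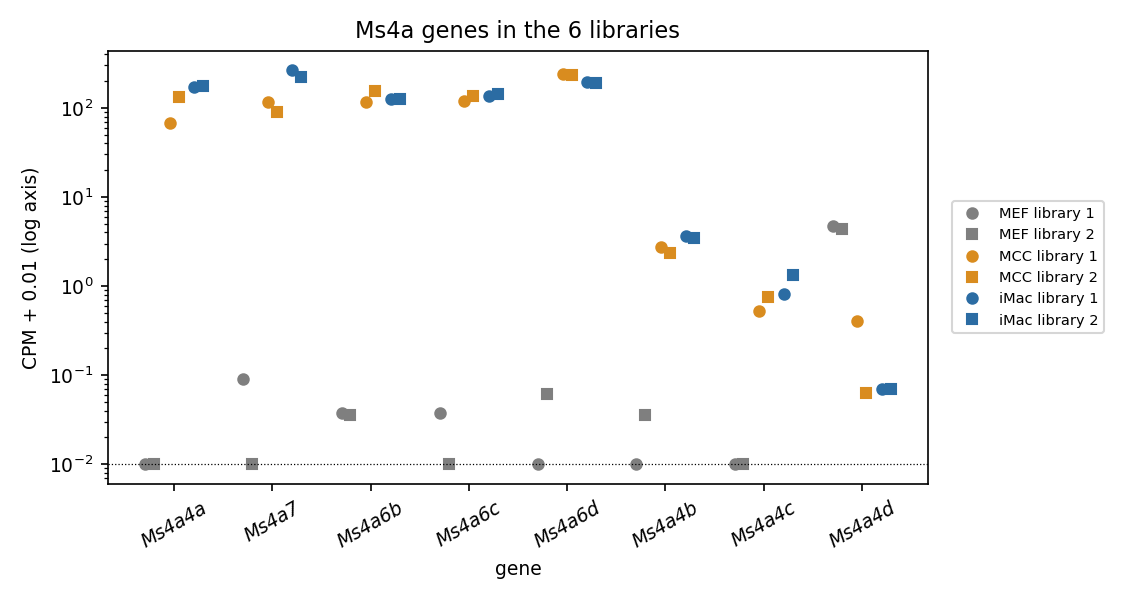
Level of each of the 8 Ms4a genes in the 6 libraries, in CPM plus 0.01 on a log axis; each point is 1 library and the dotted line marks a count of 0. In MEF 7 genes lie near the line, and Ms4a4d lies highest in MEF at 4.77 and 4.33 CPM.

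Levels of different genes were compared per kilobase of exonic bases. In MCC the order was Ms4a6d at 137 CPM per kilobase, Ms4a4a at 120, Ms4a6c at 62.0, Ms4a6b at 30.5 and Ms4a7 at 23.1. In iMac it was Ms4a4a at 209, Ms4a6d at 112, Ms4a6c at 68.2, Ms4a7 at 54.7 and Ms4a6b at 28.2. Ms4a4a and Ms4a6d exchange places between the orders, and Ms4a7 moves above Ms4a6b. The lead of Ms4a4a in iMac depends on its length of 836 exonic bases. By CPM it averaged 174.6 there, under Ms4a7 at 243.6 and Ms4a6d at 193.9. In MCC the first 2 do not differ beyond their spread, since the SD of Ms4a4a was 56.0 CPM per kilobase (n = 2). Ms4a4b, Ms4a4c and Ms4a4d stayed at or below 0.609 in both groups. In MEF, Ms4a4d made up 98.8% of the members' total per kilobase.

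**Figure D2:**
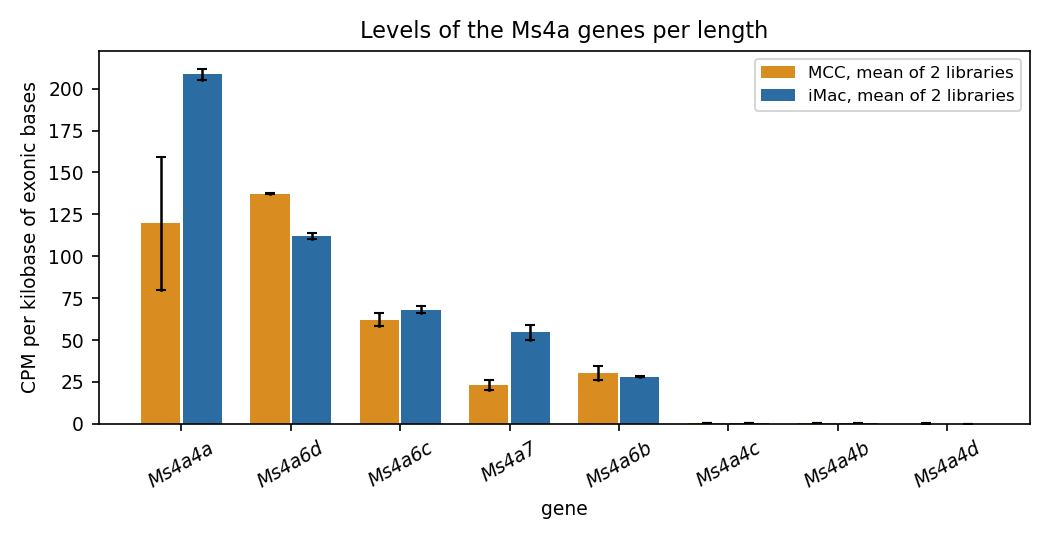
Mean CPM per kilobase of exonic bases in MCC and iMac, with bars that span the 2 libraries of a group. Ms4a4a leads in iMac at 209 and Ms4a6d leads in MCC at 137.

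The shares within the family differ between MCC and iMac in the same way. Ms4a7 made up 17.4% and 11.9% of all member counts in MCC and 29.4% and 25.8% in iMac. Ms4a6d made up 36.1% and 31.4% in MCC and 22.0% and 21.9% in iMac. Each share has a 95% Wilson interval narrower than the gap between the groups, from counting alone, and the MCC libraries differ from each other by more than that interval.

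Between iMac and MCC, Ms4a7 had the largest fitted rise of the 8 members. It averaged 243.6 CPM ± 28.16 (SD, n = 2) in iMac and 102.8 CPM ± 18.02 in MCC, a log2 fold change of 1.25 ± 0.32 (SE) with an edgeR adjusted p of 0.184. Ms4a4a had 0.81 ± 0.36 (edgeR adjusted p = 0.331), Ms4a4c 0.75 ± 0.47 (edgeR adjusted p = 0.46) and Ms4a4b 0.48 ± 0.39 (edgeR adjusted p = 0.538). Ms4a6c stood at 0.14 ± 0.19 and Ms4a6b at -0.12 ± 0.15. Ms4a6d had -0.30 ± 0.23 (edgeR adjusted p = 0.536). Ms4a4d had -1.83 ± 1.01 on 17 counts in MCC and 4 in iMac. The sign for Ms4a4d depends on MCC library 1: without it the log2 fold change was 0.13.

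In edgeR's quasi-likelihood test, 0 of the 8 members were called at an adjusted p of at most 0.05, where 0.0107% of the 18613 tested genes were called higher and 0.0107% lower. One member, Ms4a7, had an unadjusted p under 0.05, at 0.0112, as did 18.2% of all tested genes. DESeq2 called Ms4a7 higher and Ms4a6d lower, beside 7.72% of 15365 genes called higher and 10.0% called lower. edgeR fitted on the iMac and MCC libraries alone called the same pair in the same directions, beside 4.36% of 15859 genes higher and 4.24% lower. limma-voom called none of the members, beside 0.543% of 18613 genes called higher and 0.242% lower; 3 members and 16.3% of all genes had an unadjusted p under 0.05. Without MCC library 2 edgeR called Ms4a4a, with a log2 fold change of 1.25, beside 0.332% of 19900 genes higher and 5.71% lower; the lone MCC library is there assumed to vary like the other groups. For 6 of the 8 members the iMac and MCC libraries do not overlap, as for 55.6% of all tested genes. The median log2 fold change was 0.31 over the members and -0.02 over all genes.

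**Figure D3:**
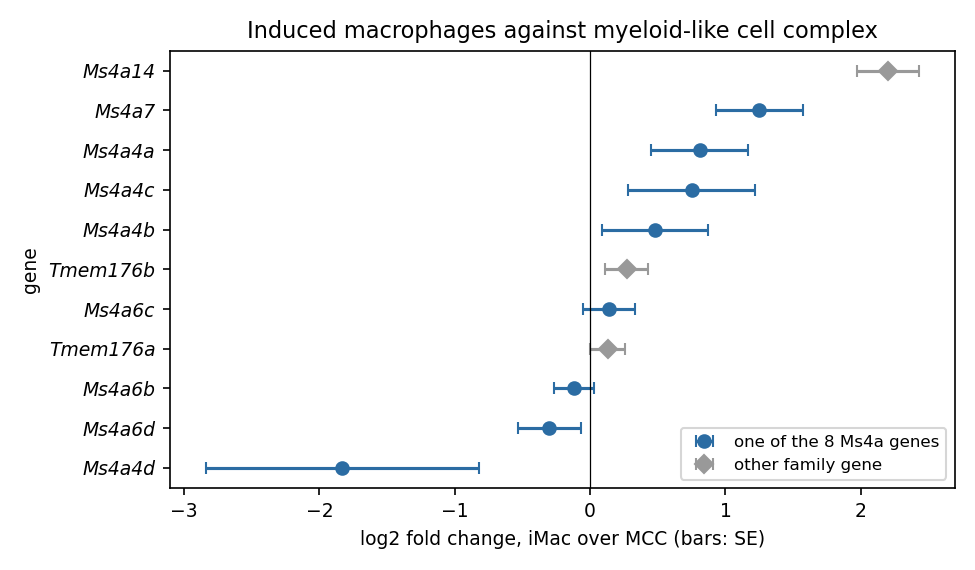
Log2 fold change of iMac over MCC with its SE, for the 8 Ms4a genes (circles) and 3 other family genes (diamonds). Ms4a14 lies at 2.20 and Ms4a7 at 1.25, while Ms4a6b, Ms4a6c and Tmem176a lie near 0.

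Among genes of the family that did not choose the set, Ms4a14, the next gene beside Ms4a7, stood out. It was counted 0 and 0 times in MEF, 424 and 557 times in MCC, and 2216 and 1761 times in iMac, with no overlap among groups. Against the floor of 3 counts, it was at least 326.5-fold higher in MCC than in MEF and at least 1506-fold higher in iMac. With 0 counts in MEF it passed the filter on low counts only through MCC and iMac. Its levels against MEF are therefore a description, with no test. In iMac against MCC its log2 fold change was 2.20 ± 0.23 (edgeR adjusted p = 0.0839), and DESeq2 and limma-voom called it. The other 7 Ms4a genes, which include the CD20 gene Ms4a1 and the IgE receptor gene Ms4a2, had at most 5 counts in any group and were not tested.

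Tmem176a and Tmem176b, which encode related membrane proteins, were already present in MEF. Tmem176b stood at 139 and 188 CPM in MEF, 275 and 261 CPM in MCC, and 327 and 321 CPM in iMac. It rose by 0.71 ± 0.16 on the log2 scale in MCC (edgeR adjusted p = 0.0176) and by 0.98 ± 0.16 in iMac (edgeR adjusted p = 0.0061). Tmem176a rose by 0.45 ± 0.13 in MCC (edgeR adjusted p = 0.0322) and by 0.59 ± 0.13 in iMac (edgeR adjusted p = 0.0136); over its alternatives the adjusted p ran from 0.00889 to 0.0993 in MCC and from 0.000227 to 0.079 in iMac, so the call was lost in part of them. In MCC it was lost without MCC library 1 (0.0993), without either iMac library (0.0785 each), when only the groups compared were fitted (0.0541) and with library totals in place of scaling (0.0629). In iMac it was lost without iMac library 1 (0.079) or 2 (0.0757) and with library totals (0.0624).

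**Figure D4:**
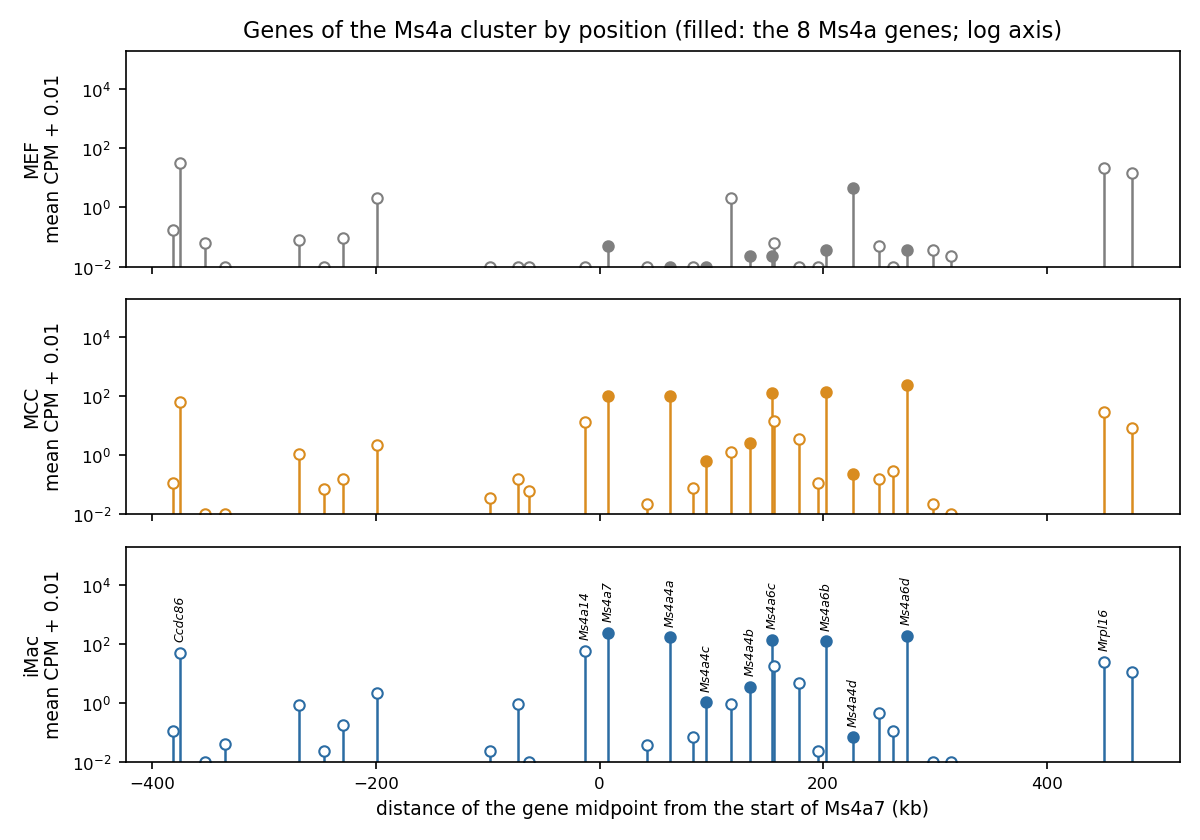
Mean level of every gene with a known position around the Ms4a genes, in CPM plus 0.01 on a log axis. Genes are placed by the distance of their midpoint from the lowest base of Ms4a7 in kilobases, which the axis names its start. Filled points are the 8 members. High genes in iMac are interspersed with low ones: Ms4a4c and Ms4a4b lie between Ms4a4a and Ms4a6c, and Ms4a4d lies between Ms4a6b and Ms4a6d.

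Genes around the members were not uniform. Gm8369, between Ms4a6c and Ms4a6b, was at 0 CPM in MEF, 3.63 in MCC and 4.74 in iMac. Outside the family, Ccdc86 was at 32.4, 64.0 and 51.9 CPM and Mrpl16 at 21.8, 28.4 and 25.7 CPM in MEF, MCC and iMac. Slc15a3, a transporter gene that lies before Ms4a7 within 500 kb, was at 0.0807, 92.3 and 135.6 CPM, so it was near 0 in MEF as most members were.

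The genes of pathways linked to the family were taken from fixed lists. Of 12 tested genes of Dectin-1, Trem2 and Fc receptor signalling, 11 rose and 0 fell in MCC against MEF, where 23.4% of all genes rose and 29.6% fell. In iMac against MEF all 12 rose, where 25.1% of all genes rose and 32.4% fell. The 2 comparisons share their MEF libraries. In MEF 7 of the 12 genes were under 1 CPM, and they passed the filter on low counts only through MCC and iMac. Only a rise could be called for those 7, so their part of these counts is a description, with no test. Tyrobp, the adaptor of Trem2, stood at 0.163 and 0.0773 CPM in MEF, 433 and 504 CPM in MCC, and 709 and 741 CPM in iMac. Trem2, a lipid-sensing receptor, was at 275 and 294 CPM in MCC and at 377 and 393 CPM in iMac. Syk, already at 18.6 and 19.6 CPM in MEF, rose by 3.56 ± 0.11 on the log2 scale in MCC (edgeR adjusted p = 0.000117).

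Of 3 other tested genes whose proteins have been reported to bind Ms4a proteins, Vsig4, a complement receptor, rose in MCC and Kit, a receptor tyrosine kinase, fell in both MCC and iMac. Vsig4 was at 2.96 and 0.401 CPM in the MCC libraries, its level differing between them, and at 0.299 and 0.271 CPM in iMac. In MEF Vsig4 had 0 counts, so it passed the filter on low counts only through MCC and iMac, and only a rise could be called. Kit passed that filter only through MEF, so only a fall could be called. Their levels are given as a description. The rise of Vsig4 lost its call without either MEF library and without either iMac library. Tnfrsf18 fell in iMac; without any 1 of the MEF or iMac libraries 1 of the 2 falls in iMac was called. Of 14 genes of resident and alternatively activated macrophages, 13 rose in MCC and 0 fell; in iMac 13 rose and Lyve1 fell. Mrc1, the mannose receptor, was at 2220 and 1990 CPM in MCC and at 1360 and 1360 CPM in iMac. All 10 macrophage identity genes rose in MCC and in iMac, and of 10 fibroblast genes 9 fell in MCC and 10 in iMac. In MEF, 6 of the macrophage identity genes and 9 of the 14 resident genes were under 1 CPM. Those near 0 there, such as Itgam, Timd4 and Mgl2 with 0 counts, passed the filter on low counts only through MCC and iMac. Only a rise could be called for them, so their part of these counts is a description, with no test. Over all tested genes, 23.4% rose and 29.6% fell in MCC, and 25.1% rose and 32.4% fell in iMac.

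Of 8 tested monocyte genes, Ccr2, Cx3cr1 and Treml4 rose in MCC and Ace fell. Treml4 was low, with 0 counts in MEF and 0.442 and 0.91 CPM in MCC. Ccr2 also had 0 counts in MEF, and Cx3cr1 had 3 in each MEF library. Ccr2, Cx3cr1 and Treml4 passed the filter on low counts only through MCC and iMac, so only a rise could be called. In iMac 2 monocyte genes rose and 2 fell. Against MEF, 23.4% of all tested genes rose and 29.6% fell in MCC, and 25.1% rose and 32.4% fell in iMac. Of 16 interferon-stimulated genes, 6 rose in MCC and 9 in iMac, and 3 of the 16 were under 1 CPM in MEF. The interferon-stimulated sum was 155 CPM in MCC library 1 and 340 CPM in MCC library 2, next to Ms4a4a at 66.8 and 133 CPM. In iMac the sum was 449 and 283 CPM, next to Ms4a4a at 172 and 178 CPM. Any link between this sum and the level of Ms4a4a was not tested. Without MEF library 1 the list's counts were 2 in MCC and 4 in iMac, and without MEF library 2 they were 3 and 5. Without iMac library 1 or 2 the iMac count was 4 or 5. The 2 monocyte falls in iMac became 1 without MEF library 1 and 0 without either iMac library, and the fall in MCC was lost without MCC library 2.

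Markers of other blood cells moved in both directions. Against MEF, 23.4% of all tested genes rose and 29.6% fell in MCC, and 25.1% rose and 32.4% fell in iMac. Prtn3, a serine protease of granulocyte progenitors, was higher in MCC and iMac than in MEF, as 7 of the members were. So were the B cell genes Cd22 and Fcrla, which had 0 counts in MEF. Prtn3, Cd22 and Fcrla passed the filter on low counts only through MCC and iMac, so only a rise could be called. Their part in the members' levels was not tested. Of the 5 tested genes of the B cell list, Ebf1 and Cr2 fell and Fcrla and Cd22 rose in MCC. Cd22 was at most 1.87 CPM and Fcrla at most 0.302 CPM. In iMac Ebf1 fell and Fcrla and Cd22 rose. In MCC the 2 rises became 1 without either MEF library, and the 2 falls became 0; without any 1 of the MCC or iMac libraries 1 fall was called. In iMac the 2 rises became 1 without any 1 of the MEF or iMac libraries. Of 2 tested T and NK cell genes, edgeR on all 6 libraries, DESeq2 and limma-voom called 0 against MEF; 1 had an unadjusted edgeR p under 0.05 in iMac and 0 in MCC. Without MEF library 2 or MCC library 1, 1 of them was called in both comparisons, and without MCC library 2 in iMac. Fitted on the iMac and MEF libraries alone, edgeR called 1 in iMac. Of 3 tested mast cell and basophil genes, 2 fell in MCC and 3 in iMac. Of 2 tested granulocyte genes, Prtn3 rose in both comparisons, from 0.0813 and 0.103 CPM in MEF to 10.1 and 14.0 CPM in MCC and 5.17 and 5.52 CPM in iMac. Elane had 0 counts in MEF and at most 0.328 CPM in any library. Without either MCC library it passed the filter on low counts through its iMac counts, so that gives no test against MEF. In iMac against MCC, edgeR called 0 of the 84 tested genes of all the lists, with 35 at an unadjusted p under 0.05, a level that 18.2% of all genes reached. DESeq2 called 35 of the 84 (17 higher, 18 lower), beside 7.72% of 15365 genes called higher and 10.0% lower. limma-voom called 5 (4 higher, 1 lower), beside 0.543% of 18613 genes higher and 0.242% lower. Fitted on the iMac and MCC libraries alone, edgeR called 19 of 76 (12 higher, 7 lower), beside 4.36% of 15859 genes higher and 4.24% lower.

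By the distance between profiles of log2(CPM + 0.5), each centred on its mean over the 6 libraries, and among 13666 genes, the genes nearest to Ms4a4a were Themis2, Lilr4b, Tifab, Il10ra and Ccl9. Those nearest to Ms4a7 were Tlr7, Cd68, Lilr4b, Cd300a and Cd84. Ms4a6b lay nearest to Ms4a6c, and Ms4a6d nearest to Fcgr1, an Fc receptor gene. With a pseudocount of 0.1, 3 of the 5 genes nearest to Ms4a4a and 1 of the 5 nearest to Ms4a7 were kept.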

How the data were processed

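Gene counts of 6 libraries (3 groups of 2) were analysed as deposited by the authors; the submitters' processing notes name STAR, featureCounts and the build mm10, and no annotation or strand setting is given in the sources used here. The kit named in the labels prepares mRNA libraries. Members and gene lists were chosen with earlier results of these data known. The named genes were the members, the other Ms4a genes and Tmem176a and Tmem176b, and up to 4 genes of each list with the highest level, together with genes called in a list, which were chosen after their values were seen, and the 5 genes nearest to a member.

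Counts were tested with edgeR 4.0.16 (quasi-likelihood, TMM scaling, genes filtered by filterByExpr, 1 mean per group over all 6 libraries, 3 residual degrees of freedom), with Benjamini-Hochberg adjustment over 18613 genes and a threshold of 0.05; 11832 genes were removed by the filter. A gene near 0 in a group passes the filter only through the other groups, so it can be called only as lower in that group. CPM use TMM-scaled library totals. Ratios to MEF of summed counts carry exact binomial intervals at 95%, or are bounds against a floor of 3 counts over both libraries. limma 3.58.1 and DESeq2 1.42.0 served as alternatives. Exonic lengths come from GENCODE M21, promoters from RefSeq. Replicate numbers do not pair the libraries. With 2 libraries per group the spread rests on few values.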

Additional observations from a re-analysis of the deposited data

How the results depend on the processing

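The count of genes called in iMac against MCC depended on the fit; the cause was not tested. It was 4 in the main analysis (2 higher, 2 lower), 2722 with DESeq2 (1186 higher, 1536 lower), 146 with limma-voom (101 higher, 45 lower), 89 without a filter on low counts (40 higher, 49 lower) and 1364 when only the groups compared were fitted (691 higher, 673 lower). With the replicate number as a block it was 0 (0 higher, 0 lower); same-numbered libraries did not deviate together (r = 0.13, -0.01 and 0.01). With library totals in place of scaling, an alternative chosen after seeing the data, 1 gene was called higher, and the median of all genes moved by -0.14 on the log2 scale. Leaving out 1 library gave 0 to 1202 genes (0 to 66 higher, 0 to 1136 lower), the highest without MCC replicate 2. Members called numbered 2 with DESeq2, 2 when only the groups compared were fitted, and 0 to 1 when 1 library was left out.

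Some log2 fold changes of iMac against MCC changed sign. Ms4a4d ran from -2.76 to 0.13 when 1 library was left out, with 0.13 without MCC replicate 1. Ms4a6c was -0.00096 with library totals. Tmem176a was -0.0055 with library totals and ran from -0.04 to 0.14 when 1 library was left out. Ms4a7 kept its direction under all 14 alternatives, from 0.94 to 1.41, as did Ms4a6d, from -0.44 to -0.27. So did Ms4a4a (0.37 to 1.25), Ms4a6b (-0.33 to -0.04), Ms4a14 (1.98 to 2.35) and Tmem176b (0.1 to 0.29). Ms4a4b and Ms4a4c kept theirs under the 13 alternatives that fitted them. Levels near 1 CPM and below, as for Ms4a4c and Ms4a4d, rest on few counts.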

Other observations

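Within a library the ratio of 2 Ms4a genes does not depend on scaling. The count ratio of Ms4a7 to Ms4a6d was 0.483 and 0.380 in MCC and 1.33 and 1.17 in iMac, with no overlap. That of Ms4a14 to Ms4a7 was 0.0955 and 0.166 in MCC and 0.251 and 0.237 in iMac. That of Ms4a6c to Ms4a6b was 1.01 and 0.867 in MCC and 1.08 and 1.13 in iMac. The 8 members summed to 662.3 and 754.1 CPM in MCC and to 897.5 and 868.5 CPM in iMac. Per 1000 CPM of the macrophage identity genes they made 60.18 and 69.94 in MCC and 40.97 and 47.95 in iMac. Without Lyz2, the most abundant gene of that list, these were 140.4 and 158.0 in MCC and 131.5 and 135.8 in iMac.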
